A study of Homo sapiens with 4 samples.

Results

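The 9 genes described here, CDKN1A, MDM2, TIGAR, GDF15, SESN1, TP53INP1, ZMAT3, RRM2B and FDXR, are established transcriptional targets of p53. They were taken by symbol from a table of 60676 genes, and all 9 were found and passed the filter on low counts. Expression was compared by RNA-seq between Synph-293, which is HEK293 made to overexpress synphilin-1, and untreated wild-type HEK293, with 2 libraries of each. HEK293 is a human embryonic kidney line that was made with adenovirus DNA. The labels name no promoter for the transgene, and they do not state if Synph-293 is 1 clone or a mixed population. Nor do they tie the libraries to different cultures, and a p-value here reflects library-to-library spread that may be technical. In such bulk RNA, fewer cells expressing a gene and less of its RNA per cell cannot be told apart.

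p53 is a transcription factor that is kept low by the ubiquitin ligase MDM2, itself a p53 target, and that accumulates after DNA damage and other stress. Its targets stop the cell cycle, repair DNA, tune metabolism and antioxidant defence, or start cell death. In HEK293 the adenoviral E1B protein is known to bind p53 and to restrain its activity as a transcription factor. The adenoviral transcripts were not analysed here.

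Library totals, the sums of counts over all genes, were between 16471847 and 16634633 counts in Synph-293 and between 13284417 and 16998732 in HEK293. The overexpressed gene SNCAIP, which encodes synphilin-1, had 22911 and 24834 counts in Synph-293, against 17 and 16 in HEK293. All 10 genes listed as HEK293 markers had counts in all 4 libraries, with the neurofilament gene NEFM lowest at 4 to 14 counts, and 3 of the 9 tested were higher and 0 lower in Synph-293. Other markers were summed in TPM, an abundance scaled for transcript length and library. Fibroblast markers summed to between 37.5 and 39.6 TPM in Synph-293 and between 21.6 and 23.6 in HEK293. Endothelial markers summed to between 3.2 and 3.36 in Synph-293 and between 1.53 and 1.85 in HEK293. Blood and immune markers summed to between 153 and 205 in Synph-293 and between 189 and 193 in HEK293. Most of that last sum came from the hemoglobin genes, HBB with 87.4 to 120 TPM and HBA1 with 47.7 to 71.7 TPM over the 4 libraries. PTPRC, CD3E and MS4A1 had 0 to 3 counts, while CD68 had 182 and 206 counts in Synph-293 and 121 and 89 in HEK293. A list of 10 markers of HeLa cells and carcinoma epithelium summed to between 249 and 302 TPM in Synph-293 and between 104 and 120 in HEK293. Of its 8 genes tested, 4 passed the test upward and 0 downward. Of the other lists, 2 of 5 fibroblast, 1 of 3 endothelial and 1 of 7 blood and immune genes tested passed upward, and 0 downward. In the same test (edgeR), 10.0% of all genes tested passed upward and 6.58% downward. In the list of 10, the counts of single genes were as follows. KRT17 had 907 and 764 counts in Synph-293 against 104 and 85 in HEK293, KRT19 had 2648 and 2290 in Synph-293 against 1218 and 1088 in HEK293, MUC1 had 60 and 80 in Synph-293 against 23 and 16 in HEK293, and KRT5 had 13 and 20 in Synph-293 against 0 and 0 in HEK293. KRT14 had 1 count in each Synph-293 library and 0 in HEK293, and EPCAM and CDH1 had 9 to 16 counts in every library. The part of these markers in the results below was not tested.

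Of the 9 targets, 4 rose and 1 fell in Synph-293. GDF15, TIGAR, CDKN1A and MDM2 were the higher genes, by 2.85-fold, 2.08-fold, 1.78-fold and 1.66-fold, and RRM2B was the lower one. The test was edgeR's quasi-likelihood test, with p adjusted over all 16421 genes tested. Of all genes tested, 10.0% were called higher and 6.58% lower, or 16.6% in either direction. At an unadjusted p under 0.05 the shares of all genes tested were 17.2% higher and 14.6% lower, and by DESeq2's adjusted p they were 7.98% and 5.58%. The median log2 fold change of the 9 was 0.12, beside -0.013 over all genes tested. SESN1, TP53INP1, ZMAT3 and FDXR did not pass. Without Synph-293 replicate 1 the number of higher targets was 2, as CDKN1A and MDM2 were no longer called, and the number of lower targets was 0. Without Synph-293 replicate 2 the numbers were 3 and 0, as MDM2 and RRM2B were not called.

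**Figure D1:**
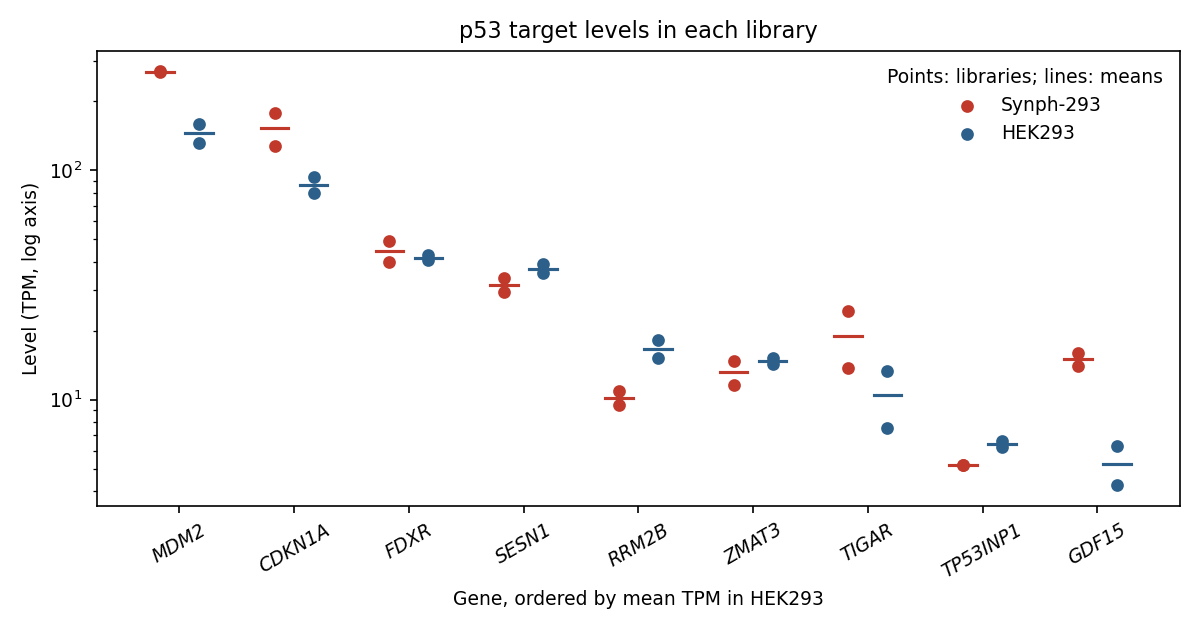
Level of each target in TPM (log axis) in the 2 Synph-293 libraries (red, left of each pair) and the 2 HEK293 libraries (blue, right), with group means as lines. MDM2 and CDKN1A are highest in both groups, and GDF15 has 16.1 and 14.0 TPM in Synph-293, against 6.27 and 4.25 TPM in HEK293.

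By TPM, a level per length that can be compared between genes, MDM2 led the 9 targets in both groups. It averaged 269 ± 1.59 TPM in Synph-293 and 145 ± 20.4 TPM in HEK293 (SD, n = 2 each). CDKN1A came next with 153 ± 36.0 TPM in Synph-293 and 86.2 ± 9.64 TPM in HEK293. In mean TPM, 96.6 was the percentile of MDM2 among the genes tested and 93.2 that of CDKN1A. FDXR, at 44.4 ± 6.48 TPM in Synph-293 and 41.6 ± 1.39 TPM in HEK293, and SESN1, at 31.7 ± 3.22 TPM in Synph-293 and 37.2 ± 2.39 TPM in HEK293, followed in that order in both groups. The order of the others differed. In Synph-293 it ran TIGAR, GDF15, ZMAT3, RRM2B and TP53INP1, and the library ranges of TIGAR and GDF15 and of GDF15 and ZMAT3 overlapped, so their order is not beyond the spread. In HEK293 it ran RRM2B, ZMAT3, TIGAR, TP53INP1 and GDF15, and the ranges of RRM2B and ZMAT3 and of TP53INP1 and GDF15 overlapped.

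MDM2 (ENSG00000135679, chr12:68808177-68850686, plus strand, GRCh38) encodes the ubiquitin ligase that marks p53 for degradation and so closes a feedback loop. MDM2 has a second promoter inside the gene, which is known to carry p53 binding sites. RefSeq places a start of MDM2 at base 68809017 of chromosome 12, 841 bases after the first start in GENCODE release 29, which is at 68808176, and before the second exon of that transcript, which begins at 68809208. The 250 bases before it (chr12:68808767-68809016, plus strand, RefSeq on GRCh38.p14) are shown because the best match to the p53 site in the windows searched lies there, with that match in capitals.
MDM2 internal promoter: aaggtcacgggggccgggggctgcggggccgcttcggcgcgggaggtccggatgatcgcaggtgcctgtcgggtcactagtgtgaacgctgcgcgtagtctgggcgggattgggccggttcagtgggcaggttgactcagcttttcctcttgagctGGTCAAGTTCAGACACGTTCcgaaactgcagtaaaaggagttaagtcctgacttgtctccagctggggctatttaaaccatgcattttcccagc

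MDM2 had 536 and 533 CPM, counts scaled to library size, in the Synph-293 libraries, against 309 and 334 CPM in the HEK293 libraries. The libraries of the groups did not overlap, and those of Synph-293 were close to each other. Its log2 fold change was 0.74 ± 0.17 (SE; edgeR, Benjamini-Hochberg adjusted p = 0.0135). MDM2 did not pass once Synph-293 replicate 1 or Synph-293 replicate 2 was left out, with log2 fold changes of 0.74 each and adjusted p of 0.124 and 0.130 in edgeR, nor with the replicate number as a block (0.0685; 7.02e-08 to 0.130 over all alternatives). A processed pseudogene within MDM2 on the same strand, AC025423.2, had 494 and 512 counts in Synph-293 and 276 and 244 in HEK293, and with its counts added to those of MDM2 the log2 fold change was 0.74. These are gene-level counts and hold no information on which promoter was used. The transcript length of MDM2 implied by count, RPKM and library total was 2938 and 2748 bases in Synph-293. In HEK293 it was 3309 and 3007 bases, and the cause of this difference was not tested.

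The p53 site is a pair of motifs of 10 bases each. A search for this p53 consensus site as 20 bases without a spacer, read on both strands, allowed at most 3 mismatches outside the fixed C and G of each motif, a setting chosen after seeing the sequences. Windows from 250 bases before to 50 after the start were found for 7 of the 9 genes, and 4 of the 7 held a match: MDM2, GDF15, FDXR and SESN1. In the whole RefSeq table, 1.12% of 35116 windows and 1.37% of genes with a window held one, and 5 of the 14 windows of the 7 genes did. Among these 5, the same MDM2 match was counted more than once, in windows that overlap. As the setting was chosen on known p53 targets, these shares are not a test. The matches of the other 3 genes are given here because MDM2 and GDF15 rose while FDXR and SESN1, with like matches, did not pass the test. Capitals mark the C and G that the search held fixed.
GDF15 (chr19:18386186-18386205, plus strand): agcCatGcccgggCaaGaac
FDXR (chr17:74872996-74873015, minus strand): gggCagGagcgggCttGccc
SESN1 (chr6:109009018-109009037, minus strand): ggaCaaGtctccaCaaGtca
The MDM2 match had 2 mismatches and each of these had 3. A p53 site that lacks a fixed C or G is not found by the search. The MDM2 promoter shown above may therefore hold p53 sites that are not in capitals. CDKN1A, TIGAR and ZMAT3 held no match in their windows, which cover only the bases next to a start. The main p53 sites of CDKN1A are known to lie further upstream.

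CDKN1A (ENSG00000124762, chr6:36676460-36687339, plus strand) encodes p21, an inhibitor of cyclin-dependent kinases through which p53 arrests the cell cycle. It had 231 and 178 CPM in Synph-293, against 108 and 122 CPM in HEK293. Both Synph-293 libraries were above both HEK293 libraries, and replicate 1 was the higher one. The log2 fold change was 0.84 ± 0.18 (SE; edgeR, adjusted p = 0.00902). Without Synph-293 replicate 1 it was 0.65 and not past the threshold (edgeR adjusted p = 0.165; 1.28e-10 to 0.165 over all alternatives).

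Many cell cycle genes are known to be repressed when p21 rises, through the complex DREAM. Of 30 listed and tested, 0 were higher and 1, the centromere histone gene CENPA, was lower (edgeR), beside 10.0% and 6.58% of all genes tested. The median log2 fold change of the 30 was -0.014. At an unadjusted p under 0.05, 1 was higher and 5 were lower, beside 17.2% and 14.6% of all genes tested, and DESeq2 called 0 higher and 2 lower. CENPA had a log2 fold change of -0.67 ± 0.19 (adjusted p = 0.0333, edgeR), and it was -0.80 without Synph-293 replicate 1 and -0.54 without replicate 2, not called in either case. The proliferation marker MKI67, named after its value was seen, had 598 and 810 CPM in Synph-293, against 772 and 751 CPM in HEK293, and did not pass.

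TIGAR (ENSG00000078237, chr12:4307763-4360028, plus strand) encodes a fructose bisphosphatase that lowers glycolytic flux and sends glucose into the pentose phosphate pathway. It had 34.6 and 37.3 CPM in Synph-293, against 14.2 and 20.6 CPM in HEK293. The groups were apart and the spread was wider in HEK293. The log2 fold change was 1.05 ± 0.19 (SE; edgeR, adjusted p = 0.00381), and TIGAR was called whichever library was left out.

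The deposited TPM of TIGAR separated the groups less. It was 13.8 and 24.2 TPM in Synph-293, against 7.55 and 13.4 TPM in HEK293, so the lower Synph-293 library lay just above the higher HEK293 library. In limma on log2(TPM + 1) the log2 fold change was 0.80 and not past the threshold (adjusted p = 0.124; 9.21e-14 to 0.129 over all alternatives). The transcript length implied by count, RPKM and library total was 3709 and 2118 bases in Synph-293 and 2633 and 2214 bases in HEK293. Its highest value was 1.75 times its lowest, a ratio that 5.34% of the genes tested reached, with a median of 1.12 over them. Of the 9 targets the next widest was RRM2B, at 1.21. A protein-coding gene of the deposited annotation, AC008012.1, overlaps TIGAR on the same strand, with 311 and 209 counts in Synph-293 and 215 and 176 in HEK293. With its counts added, TIGAR had 892 and 816 counts in Synph-293 and 454 and 451 in HEK293, and a log2 fold change of 0.77 (edgeR adjusted p = 0.00897), a fit added after the data were seen.

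GDF15 (ENSG00000130513, chr19:18374731-18389176, plus strand) encodes a secreted stress cytokine of the TGF-beta family. It had the lowest mean TPM of the targets in HEK293, and its fitted fold change was the highest of the 9. It had 174 and 162 counts in Synph-293, against 72 and 37 counts in HEK293, or 10.4 and 9.94 CPM in Synph-293 against 4.27 and 2.77 CPM in HEK293. Both Synph-293 libraries lay above both HEK293 libraries, and the HEK293 libraries differed more between themselves. The log2 fold change was 1.51 ± 0.25 (SE; edgeR, adjusted p = 0.00196). Of the 5 called targets, GDF15 alone passed in all 16 alternatives, with log2 fold changes from 1.18 to 1.86.

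GDF15 is also a target of ATF4, the transcription factor of the integrated stress response. Of 20 genes of that response tested, 1 was higher and 4 lower (edgeR), beside 10.0% and 6.58% of all genes tested. Their median log2 fold change was -0.16, and DESeq2 called 1 higher and 2 lower. At an unadjusted p under 0.05, 2 were higher and 7 lower, beside 17.2% and 14.6% of all genes tested. The mTOR inhibitor gene DDIT4 was the higher one, at 0.94 ± 0.17 (adjusted p = 0.00314). The cystine transporter gene SLC7A11 had -1.41 ± 0.23 (adjusted p = 0.00215), and CHOP, encoded by DDIT3, had -0.81 ± 0.18 (adjusted p = 0.0103). DDIT3 was not called without Synph-293 replicate 1, with a log2 fold change of -0.66. CTH and, named after its value was seen, ASNS, enzymes of cysteine and asparagine synthesis, were the other lower genes, at -0.70 and -0.50, and neither was called without Synph-293 replicate 1 (-0.58 and -0.59) or replicate 2 (-0.81 and -0.41). ATF4 itself had a log2 fold change of -0.10 and did not pass.

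**Figure D2:**
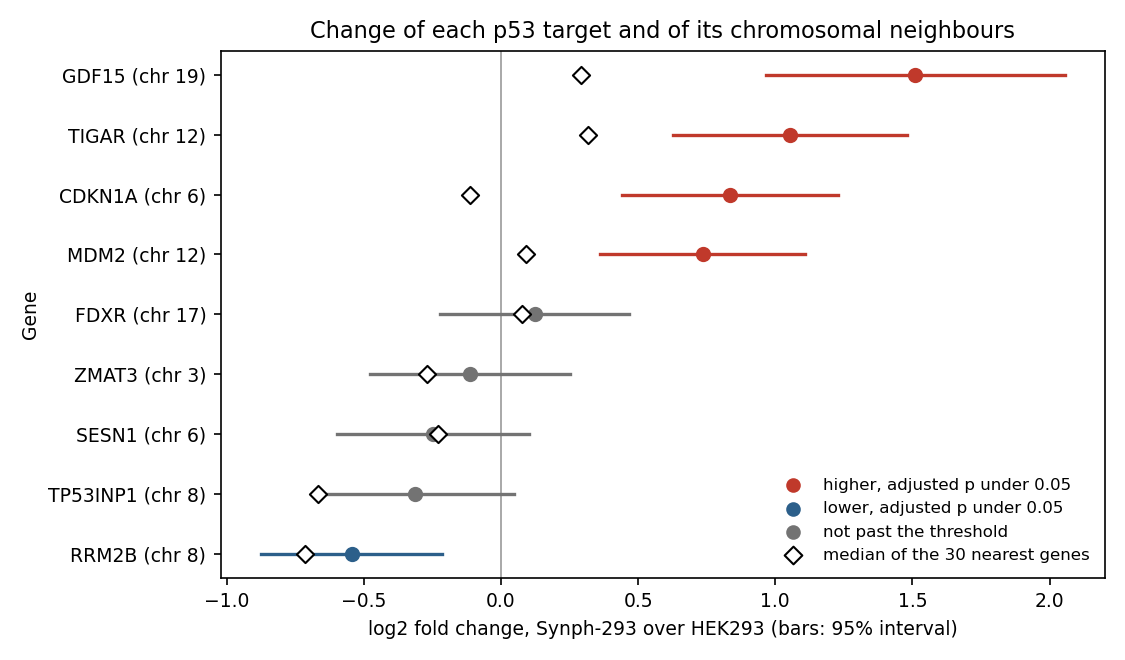
log2 fold change of each target, Synph-293 over HEK293, with its 95% interval (points and bars), and the median over its 30 nearest genes tested on the chromosome (diamonds). All targets but SESN1 lie to the right of their neighbours' medians, including RRM2B, at -0.54 beside a median of -0.71.

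RRM2B (ENSG00000048392, chromosome 8, 102204502 to 102238961, minus strand) encodes a p53-inducible small subunit of ribonucleotide reductase that supplies deoxynucleotides for repair. It had 33.4 and 30.8 CPM in Synph-293, against 46.6 and 47.1 CPM in HEK293. The groups were apart with little spread within either. The log2 fold change was -0.54 ± 0.15 (SE; edgeR, adjusted p = 0.0301). Its neighbours were lower as well: of the 30 nearest genes tested, 17 were called lower and 1 higher, and their median log2 fold change was -0.71. With the neighbours' median removed, the log2 fold change of RRM2B was 0.17 and did not pass (limma adjusted p = 0.572; 8.93e-05 to 0.572 over all alternatives). RRM2B was also not called without Synph-293 replicate 1 (-0.59, adjusted p = 0.198), without Synph-293 replicate 2 (-0.49, adjusted p = 0.337) or with the replicate number as a block (adjusted p = 0.116), in edgeR.

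TP53INP1 (ENSG00000164938, chromosome 8, 94925972 to 94949378, minus strand) encodes a nuclear body protein that promotes cell death and autophagy under stress, and lies on the same chromosome arm. It had 19.0 and 20.3 CPM in Synph-293, against 25.4 and 23.2 CPM in HEK293, and the libraries of the groups did not overlap. The log2 fold change was -0.31 ± 0.16 with a 95% interval from -0.67 to 0.046, and it did not pass (edgeR adjusted p = 0.215). Of its 30 nearest genes, 15 were called lower and 0 higher, with a median of -0.67. These 2 medians lay beyond the 10th percentile of such medians over all genes tested, -0.30. With its neighbours' median removed, TP53INP1 had a log2 fold change of 0.37 (limma adjusted p = 0.209; 0.0609 to 0.695 over all alternatives).

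Among the 30 nearest genes tested of the 4 higher targets, the median log2 fold change was -0.11 for CDKN1A, 0.09 for MDM2, 0.32 for TIGAR and 0.29 for GDF15, where the 90th percentile of such medians was 0.33. Of these neighbours, 2 were called higher and 2 lower for CDKN1A, 4 and 0 for MDM2, 5 and 0 for TIGAR, and 8 and 1 for GDF15. With these medians removed, the log2 fold changes were 0.89 for CDKN1A, 0.65 for MDM2, 0.68 for TIGAR and 1.18 for GDF15, and all 4 passed (limma adjusted p of 0.00623, 0.0387, 0.0452 and 0.0226; each over the alternatives given above, or 5.49e-11 to 0.0226 for GDF15).

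The other 3 targets showed no difference past the threshold. SESN1 (ENSG00000080546, chr6:108986437-109094819, minus strand), a sestrin that restrains mTORC1 and protects from oxidants, had 50.7 and 45.7 CPM in Synph-293, against 52.5 and 62.2 CPM in HEK293. The groups did not overlap but were close. Its log2 fold change was -0.25 ± 0.16, with a 95% interval from -0.60 to 0.10 (edgeR adjusted p = 0.311). ZMAT3 (ENSG00000172667, chr3:178960121-179072215, minus strand), a zinc finger RNA-binding protein, had 71.8 and 60.7 CPM in Synph-293, against 65.3 and 78.0 CPM in HEK293, with overlapping groups and an interval from -0.48 to 0.25. FDXR (ENSG00000161513, chr17:74862497-74873031, minus strand), the mitochondrial reductase that passes electrons to ferredoxin, had 889 and 740 counts in Synph-293, against 796 and 576 counts in HEK293, with CPM ranges that overlapped and an interval from -0.22 to 0.47. The intervals of these 3 genes do not reach the fitted change of TIGAR or of GDF15. Without overlap between libraries, 4 of the 9 targets were higher and 3 lower, beside 30.5% and 29.1% of all genes tested.

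**Figure D3:**
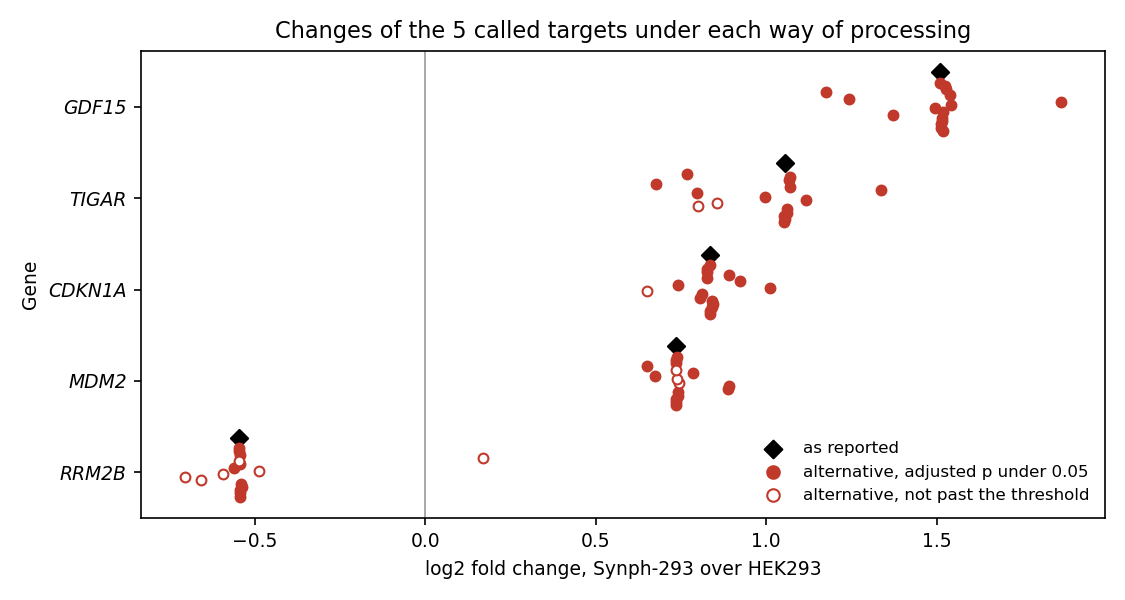
log2 fold change of the 5 called targets, Synph-293 over HEK293, as reported (black diamonds) and under 16 alternatives each (filled where the adjusted p is under 0.05, open where it is not). GDF15 is filled throughout, and 1 alternative puts RRM2B above 0, at 0.17.

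Of 3 lists with 20 further p53 targets each, 20, 18 and 20 genes could be tested. Of 20 growth arrest and feedback genes, 4 were higher and 1 lower (edgeR), beside 10.0% and 6.58% of all genes tested. Their median log2 fold change was 0.059, and DESeq2 called 4 higher and 1 lower. At an unadjusted p under 0.05, 4 were higher and 2 lower, beside 17.2% and 14.6% of all genes tested. The antiviral ubiquitin ligase gene TRIM22 had 14.4 and 15.5 CPM in Synph-293, against 2.19 and 0.824 CPM in HEK293. Its log2 fold change was 3.25 ± 0.32 (edgeR adjusted p = 6.08e-05), and it was 4.16 without HEK293 replicate 1 and 2.76 without HEK293 replicate 2. TP53I11 had 0.80 ± 0.16 and the 14-3-3 sigma gene SFN, a checkpoint protein, 0.79 ± 0.21, and the antiproliferative gene BTG2, named after its value was seen, had 0.62 ± 0.16 (edgeR adjusted p of 0.00666, 0.0255 and 0.0200). The placental growth factor gene PGF was lower, at -0.90 ± 0.23. Without Synph-293 replicate 2 the list had 1 higher and 0 lower genes: TP53I11, SFN, BTG2 and PGF did not pass, at 0.71, 0.75, 0.66 and -0.60. BTG2 also did not pass without Synph-293 replicate 1 (0.60), nor SFN without HEK293 replicate 1 (0.55). The number of lower genes was 2 without each of the other libraries.

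Of 18 cell death targets tested, 5 were higher and 0 lower (edgeR), beside 10.0% and 6.58% of all genes tested. The median log2 fold change of the 18 was 0.068. At an unadjusted p under 0.05, 6 were higher and 3 lower, beside 17.2% and 14.6% of all genes tested, and DESeq2 called 5 higher and 0 lower. PMAIP1, which encodes the BH3-only protein NOXA, had 229 and 224 CPM in Synph-293, against 124 and 121 CPM in HEK293. Its log2 fold change was 0.89 ± 0.16 (edgeR adjusted p = 0.00308), and it was called whichever library was left out. The TRAIL receptor genes TNFRSF10D, for a decoy receptor, and TNFRSF10B, for a death receptor, had 0.88 ± 0.21 and 0.74 ± 0.20, the receptor gene EDA2R 0.74 ± 0.17 and, named after its value was seen, CYFIP2 0.72 ± 0.19. Without Synph-293 replicate 2 the list had 1 higher and 2 lower genes, as TNFRSF10D, TNFRSF10B, EDA2R and CYFIP2 did not pass (0.68, 0.64, 0.72 and 0.83), and without HEK293 replicate 2 it had 3 lower genes. CYFIP2 also did not pass without Synph-293 replicate 1 (0.61). The effectors BAX and BBC3, named after their values were seen, had log2 fold changes of -0.33 ± 0.16 and -0.15 ± 0.17 and did not pass.

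Of 20 targets in DNA repair and metabolism, 0 were called in either direction (edgeR), beside 10.0% higher and 6.58% lower of all genes tested. The median log2 fold change of the 20 was -0.089. At an unadjusted p under 0.05, 1 was higher and 2 were lower, beside 17.2% and 14.6% of all genes tested, and DESeq2 also called 0. The nucleotide excision repair genes XPC and DDB2, named after their values were seen, had log2 fold changes of -0.13 ± 0.15 and 0.35 ± 0.15.

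**Figure D4:**
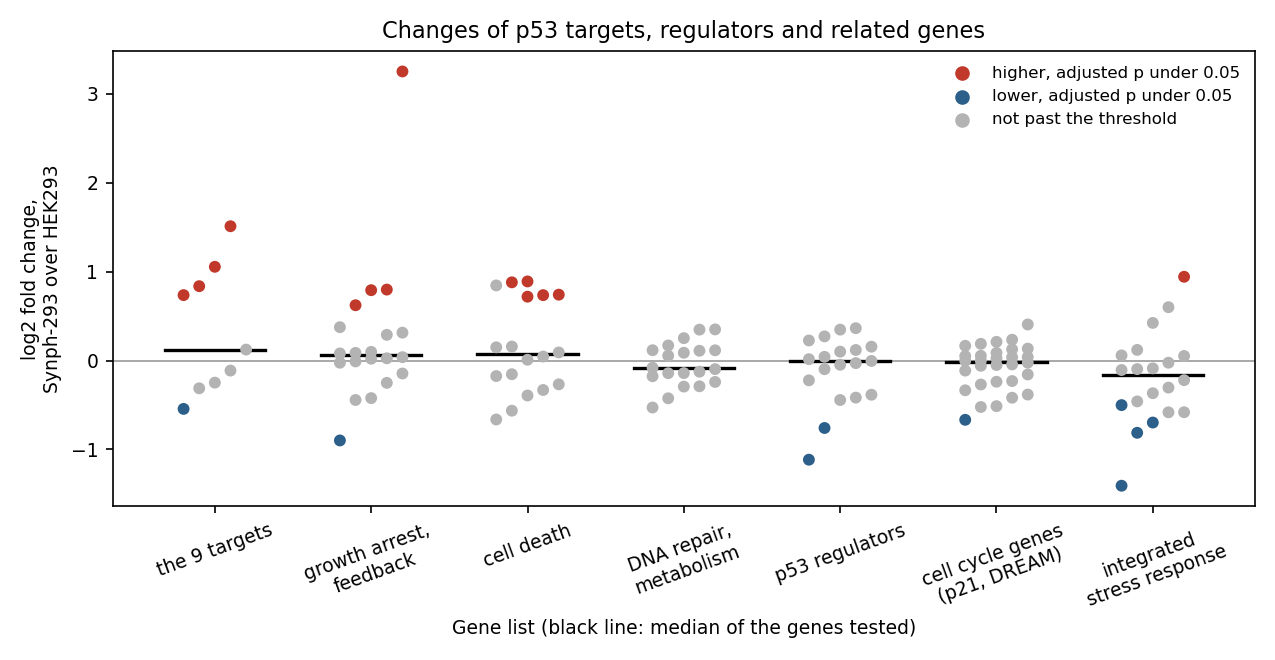
log2 fold change of each gene tested, Synph-293 over HEK293, in 7 lists (points, red where called higher, blue where called lower, grey otherwise), with the median of each list as a black line. The list medians lie between -0.16 and 0.12, and the called genes of the cell death list are all above 0.

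Among 19 tested genes that regulate p53, 0 were higher and 2 lower (edgeR), beside 10.0% and 6.58% of all genes tested. The median log2 fold change of the 19 was -0.0052. At an unadjusted p under 0.05, 0 were higher and 5 lower, beside 17.2% and 14.6% of all genes tested, and DESeq2 called 0 higher and 2 lower. CDKN2A, whose product ARF holds MDM2 back and whose product p16 inhibits cyclin-dependent kinases, had 70.3 and 55.3 CPM in Synph-293, against 130 and 143 CPM in HEK293. The groups were well apart, with a log2 fold change of -1.12 ± 0.17 (edgeR adjusted p = 0.0013). Its call held whichever library was left out. ATM, a kinase that activates p53 after DNA breaks, had 83.5 and 94.2 CPM in Synph-293, against 169 and 132 CPM in HEK293, with -0.76 ± 0.17 (adjusted p = 0.0133). ATM did not pass when Synph-293 replicate 1 (-0.66) or 2 (-0.85) was left out, and its log2 fold change was -0.12 with the neighbours' median removed. MDM4, the partner of MDM2, had a log2 fold change of -0.098 ± 0.163 and did not pass; it was named after its value was seen.

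The genes whose centred log2 CPM over the 4 libraries was closest to that of GDF15 were SRPX2, TMSB15A and BRSK1, at root mean square distances of 0.0312, 0.0395 and 0.0537. For TIGAR they were ANKRD1, PHOSPHO1 and BISPR, at 0.0142, 0.0175 and 0.0239. In all, 19 of the 16421 genes tested lay within 0.1 of GDF15 and 32 within 0.1 of TIGAR. The log2 fold changes of the named genes were 1.43 to 1.52 for GDF15 and 1.06 to 1.20 for TIGAR. With 2 libraries per group, genes of like fold change lie close, and shared control was not tested.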

How the data were processed

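RNA was measured in 4 libraries, 2 of Synph-293 and 2 of HEK293, grouped by the sample titles. The deposited table holds an estimated count, an RPKM and a TPM per gene and library. The deposited counts are whole numbers and were read as rounded estimates, since each library listed 43 to 63 genes at 0 counts but with TPM above 0. RPKM and TPM were scaled by the authors for length and library size. Per the submitters' processing notes, the tools were RSEM 1.3.1, STAR 2.7.1a, HTSeq 0.11.2, featureCounts 2.0.0, Cufflinks 2.2.1 and cutadapt 2.8, with the build GRCh38.p13. Their roles and the strand setting are not given in the sources used here, so reads of overlapping genes may be shared.

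The analysis used edgeR 4.0.16 under R 4.3.3. filterByExpr (minimum count 10, minimum total 15) left 16421 of 60676 genes, libraries were scaled by TMM, and a quasi-likelihood test between groups, without further terms, gave p-values adjusted over all genes tested (Benjamini-Hochberg, called below 0.05). CPM was computed on the scaled sizes. The standard error is the log2 fold change divided by the square root of F. limma 3.58.1 and DESeq2 1.42.0 served as alternatives. For 2 libraries against 2, an exact permutation test cannot give a two-sided p below 0.333, so none was run. On simulated counts the test was checked for known changes. The members and lists were chosen with earlier results of these data known. Every member is named, with up to 4 called genes of each other list by size of change and the nearest patterns to 2 members. One gene of the list of regulators is not reported here.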

Additional observations from a re-analysis of the deposited data

How the results depend on the processing

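In 16 alternatives, 4 targets were called higher in all but 5: 3 with limma on TPM at either pseudocount, 3 with the replicate block, and 2 to 4 with 1 library left out. Lower targets numbered 0 with limma on log2(TPM + 1) or log2(TPM + 0.1), with the replicate block and with the neighbours' median removed, and 0 to 1 with 1 library left out; with the neighbours' median removed RRM2B stood at 0.17, and the cause was not tested. Of all genes, 1086 were higher in limma on log2(TPM + 0.1) and 1049 (without Synph-293 replicate 2) to 2183 with 1 library left out, beside 1648. Lower genes numbered 521 and 474 in limma on TPM with a pseudocount of 1 and 0.1, 719 with the block, 514 with the neighbours' median removed and 457 to 2042 with 1 library left out (457 and 475 without Synph-293 replicates 1 and 2, 2042 without HEK293 replicate 2), beside 1081. Of the 143 other listed genes, 11 were higher and 11 lower, against 6 and 7 in limma on TPM at either pseudocount, 6 lower with the neighbours' median removed, and 5 to 17 higher and 8 to 23 lower with 1 library left out. The 143 genes include some that could not be tested, and in the main fit 10.0% of all genes tested were higher and 6.58% lower. A fit without 1 library takes its spread from the group that keeps both. The labels do not say that equal replicate numbers share a culture or day, so the numbers were not taken as pairs. Deviations of same-numbered libraries from their group means had a correlation of r = -0.277 across genes. With the crossed pairing, added after the data were seen, 3251 genes were higher and 3016 lower, and 21 and 32 of the other listed genes. This pairing follows the sign of that correlation, so its higher numbers are no support for it. Mitochondrial genes held 10.6% of counts in HEK293 replicate 1 and 10.9% in Synph-293 replicate 2, against 7.76% in HEK293 replicate 2 and 7.28% in Synph-293 replicate 1. The part of this difference in the results was not tested. The ranks of the targets by RPKM were those by TPM.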

Other observations

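Of 25 tested genes in a list of relatives that also holds some of the 9 targets, 17 were not called. In edgeR 4 were higher and 4 lower, beside 10.0% and 6.58% of all genes tested. CDKN1A, MDM2, TIGAR and RRM2B are among these called genes, so the counts partly repeat the result of the 9 targets. The CDK inhibitor genes CDKN1B (p27) and CDKN1C (p57), paralogs of CDKN1A, were lower in Synph-293. CDKN1B had 48.7 and 43.4 CPM in Synph-293, against 104 and 97.8 CPM in HEK293, and a log2 fold change of -1.13 ± 0.16 (edgeR adjusted p = 0.000632). CDKN1C had 5.6 and 4.85 CPM in Synph-293, against 12.1 and 11.2 CPM in HEK293, and -1.15 ± 0.21 (adjusted p = 0.00335). Both were called whichever library was left out, and both were lower with the neighbours' median removed, at -1.42 and -1.68. FDX1, the ferredoxin that receives electrons from FDXR, had 18.3 and 15.7 CPM in Synph-293, against 29.6 and 32.3 CPM in HEK293 (-0.86 ± 0.17, adjusted p = 0.00523), and did not pass without Synph-293 replicate 2 (-0.76) or with the neighbours' median removed (-0.29).

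The other ribonucleotide reductase subunits and sestrins did not pass (edgeR). RRM1 had a log2 fold change of 0.41 ± 0.18 and RRM2 of -0.024 ± 0.175, while SESN2 had -0.025 ± 0.162 and SESN3 -0.42 ± 0.16. TP53INP2, the paralog of TP53INP1, had 0.62 ± 0.18 (adjusted p = 0.0392) and did not pass without Synph-293 replicate 1 (0.55), Synph-293 replicate 2 (0.70) or HEK293 replicate 1 (0.51).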
